A study of Mus musculus with 90 samples.

Results

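The genes described here make sterols and fatty acids. They are the 10 of 9760 named genes tested that a fixed list of symbols names: Srebf1, Mvd, Idi1, Fdft1, Sqle, Cyp51, Sc5d, Dhcr7, Fasn and Scd1. All 10 were measured, each by 1 probe. The list was chosen with earlier results of these data known. Counts of these genes beside shares of all features are therefore a description and no independent support. They were followed in RAW 264.7, a mouse macrophage line, so all groups share a single line. Cells received LPS, a bacterial cell wall component (100 ng/ml, which the labels of the LPS groups pair with 100 pM lipid binding protein), IFG, interferon-gamma (5 nM), or 2MA, 2-methyl-thio-ATP (500 µM), an agonist of receptors for extracellular nucleotides. LPS+IFG and LPS+2MA combined the doses, and there the labels name no lipid binding protein. Each treatment was sampled at 1, 2 and 4 h, which gives 15 groups of 3 numbered sets. Every array hybridised treated RNA together with RNA of cells kept in medium for the same time, and every set had both dye orientations, 90 arrays in all. Nothing in the labels tells separate cultures from repeats of a single one, or untreated RNA shared between treatments from RNA of its own. The p-values therefore rest on the spread between these sets, which may be technical. For each gene this spread is pooled over all 15 groups.

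Cholesterol is built from acetyl-CoA through mevalonate, isoprenoid diphosphates, squalene and lanosterol. Most genes of the route, and those of fatty acid synthesis, are known targets of the sterol regulatory element binding proteins (SREBPs), which stay in the endoplasmic reticulum while sterols are abundant and are cut free to enter the nucleus when sterols run low. Srebf1 encodes SREBP-1, the member most tied to fatty acids. In macrophages the route also supplies substrate for oxysterols, the ligands of the liver X receptors, which in turn raise Srebf1.

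RefSeq promoter windows (GRCm38.p6, 250 bases before to 50 after a start) were found for 7 of the 10 genes, 11 windows in all. The sterol regulatory element, searched as TCACNCCAC on both strands, was in 0 of these windows and in 1.24% of 32851 promoter windows. That says only that these letters are not there. The CCAAT box, bound by the factor NF-Y, was in a window of 7 of the 7 genes, against 41.1% of all 27025 genes and 37.4% of all windows. The GC box GGGCGG was in a window of 6 of the 7, against 38.2% of all genes and 35.7% of all windows. Dhcr7 and Srebf1 have several windows each, so more chances of a match. The direct repeat known as the liver X receptor element, searched as its exact letters, was in 0 of the windows and in 0.0152% of all. Since no window held the sterol element, which was to decide the windows shown, 4 were chosen after the values were seen. Mvd (chr8:122443423-122443572) and Fasn (chr11:120824548-120824697), both on the minus strand, belong to genes lowered at 4 h. Cyp51 (chr5:4104698-4104847, minus strand) and Idi1 (chr13:8885456-8885605, plus strand) belong to genes raised at 1 h. Each line holds the 150 bases before the start, 5′ to 3′, with CCAAT boxes of either strand in capitals. In Fasn a pair of them overlap.
Mvd: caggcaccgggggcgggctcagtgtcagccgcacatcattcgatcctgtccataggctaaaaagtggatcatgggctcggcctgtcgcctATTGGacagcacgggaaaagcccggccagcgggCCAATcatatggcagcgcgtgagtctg
Fasn: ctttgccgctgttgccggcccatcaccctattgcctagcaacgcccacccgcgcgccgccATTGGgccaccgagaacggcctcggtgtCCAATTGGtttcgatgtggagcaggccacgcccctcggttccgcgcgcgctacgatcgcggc
Cyp51: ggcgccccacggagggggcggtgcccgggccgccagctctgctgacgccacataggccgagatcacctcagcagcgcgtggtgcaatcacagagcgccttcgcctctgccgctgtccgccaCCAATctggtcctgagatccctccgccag
Idi1: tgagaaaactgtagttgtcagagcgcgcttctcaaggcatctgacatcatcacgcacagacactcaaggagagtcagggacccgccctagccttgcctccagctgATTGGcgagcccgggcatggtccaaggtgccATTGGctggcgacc
Boxes stood in both kinds of gene: 2 in Mvd, 3 in Fasn, 1 in Cyp51 and 2 in Idi1.

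All values below are log2 ratios of treated to untreated RNA, so a value of -1 is a 2-fold lower level. They are given for sets 1, 2 and 3 in that order, then as mean ± SD of the 3 sets. Such ratios hold no levels, so the labelled cell type could not be checked on its markers. In a bulk RNA ratio, fewer cells with a transcript and less transcript per cell cannot be told apart. The direction, Cy5 over Cy3, is not stated in the sources used here and is likely: of 6 tested genes known to respond to LPS, 6 were higher at 4 h of LPS (median 3.84), and of 6 known for interferon, 6 were higher at 4 h of IFG (median 4.01). A gene is called where limma's p, adjusted by Benjamini and Hochberg over 11600 features (9760 genes and 1840 unnamed probes), is under 0.05. "Rose" and "fell" are used of called genes alone.

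With LPS some of the genes rose early and others fell late. At 1 h, Idi1, Cyp51 and Sc5d rose, 3 of 10 where 3.04% of all features were called higher, and 0 fell where 2.35% did, with 4 of the 10 at an unadjusted p under 0.05. At 2 h, Idi1 and Sc5d were higher, 2 of 10 beside 7.59%, and 0 were lower beside 7.79%, with 6 of the 10 at an unadjusted p under 0.05. At 4 h the picture had turned. Srebf1, Mvd, Sqle, Fasn and Scd1 fell, 5 of 10 beside 15.5% of features, and Idi1 alone was higher, 1 of 10 beside 12.5%. The median of the 10 was 0.06 at 1 h, -0.09 at 2 h and -0.34 at 4 h, against -0.01, -0.01 and 0.00 over all features. At 4 h of LPS, 5 of 10 tested macrophage markers were also higher and 1 lower, and the combination with IFG had 7 higher and 1 lower, that with 2MA 8 higher and 1 lower. Of 15 markers of lymphocytes, fibroblasts and epithelium, 0 were called in these groups. Features called higher at 4 h made up 12.5% for LPS alone, 14.9% for its pairing with IFG, 14.7% for that with 2MA. Those called lower made up 15.5%, 18.5% and 18.1% in the same order. The count of 0 therefore lay below the share of all features in each group. The part of the shift in macrophage markers in the results was not tested.

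**Figure D1:**
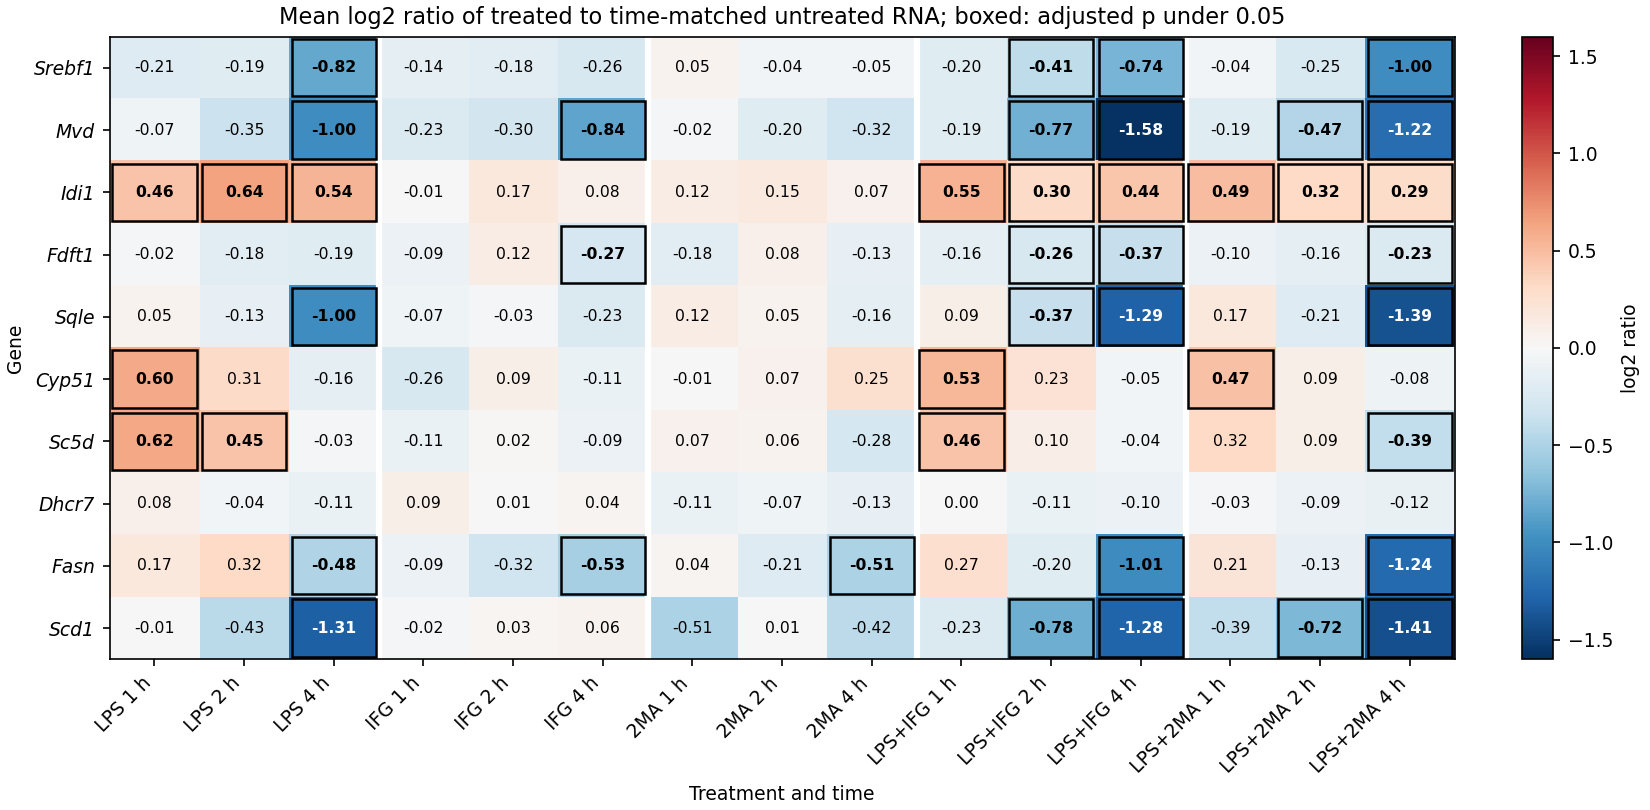
Mean log2 ratio of treated to untreated RNA for the 10 genes (rows) in the 15 treatment-time groups (columns), with red above and blue below 0 and a box around means with an adjusted p under 0.05. Idi1 is boxed in all 9 groups that held LPS, Dhcr7 in none, and the deepest blue is at 4 h of LPS, LPS+IFG and LPS+2MA.

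The combinations were tested in the same way. With LPS+IFG at 1 h, Idi1, Cyp51 and Sc5d were higher, 3 of 10 beside 4.3% of features, and 0 were lower beside 2.96%, with 5 of the 10 at an unadjusted p under 0.05. At 2 h, 5 of 10 had fallen beside 10.6%, namely Srebf1, Mvd, Fdft1, Sqle and Scd1, and Idi1 was higher, 1 of 10 beside 9.68%. At 4 h, 6 of 10 were lower beside 18.5%, the same 5 genes and Fasn, and Idi1 was higher, 1 of 10 beside 14.9%. With LPS+2MA at 1 h, Idi1 and Cyp51 were higher, 2 of 10 beside 3.44%, and 0 were lower beside 1.92%, with 4 of the 10 at an unadjusted p under 0.05. At 2 h, Mvd and Scd1 were lower, 2 of 10 beside 8.81%, and Idi1 was higher, 1 of 10 beside 8.34%. At 4 h, 7 of 10 were lower beside 18.1%, with Sc5d now among them, and Idi1 was higher, 1 of 10 beside 14.7%. The medians of the 10 at 4 h were -0.56 with LPS+IFG and -0.69 with LPS+2MA, against -0.01 over all features in both.

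Srebf1, the regulator, had values of -0.92, -0.79 and -0.76 at 4 h of LPS (-0.82 ± 0.08, adjusted p = 6.12e-09). All 3 sets were low and close together, and the level stood at 56.5% of untreated cells. Arrays with treated RNA in Cy5 gave a mean of -0.62 and those in Cy3 -1.03, and 6 of 6 arrays were below 0. With LPS+IFG at 4 h the sets gave -0.71, -0.56 and -0.95 (-0.74 ± 0.20), and at 4 h of LPS+2MA -0.97, -1.00 and -1.02 (-1.00 ± 0.03). It had fallen by 2 h with LPS+IFG, with values of -0.44, -0.33 and -0.44 (-0.41 ± 0.07, adjusted p = 0.00121). That call was lost where treated RNA carried Cy5 (-0.20) and with only that group in the fit. At 4 h of IFG its values of -0.25, -0.29 and -0.23 were close together but missed the threshold (adjusted p = 0.075). Its probe is annotated to the gene and not to either SREBP-1 isoform.

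Mvd and Idi1 act next to each other in the route and moved in opposite directions. Mvd, mevalonate diphosphate decarboxylase, makes isopentenyl diphosphate, and Idi1 turns that into its isomer. Mvd gave -1.33, -1.17 and -0.51 at 4 h of LPS (-1.00 ± 0.43, adjusted p = 1.14e-07). LPS+IFG at 4 h gave -1.93, -1.78 and -1.03 (-1.58 ± 0.48), the lowest mean of any of the 10 genes in any group, 33.4% of the untreated level. Set 3 was the least lowered in both groups, and the groups overlapped. LPS+2MA at 4 h gave -1.38, -1.28 and -0.99 (-1.22 ± 0.20).

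At 2 h Mvd gave -0.91, -0.95 and -0.46 with LPS+IFG (-0.77 ± 0.27, adjusted p = 1.87e-05). With LPS+2MA at 2 h it gave -0.45, -0.65 and -0.31 (-0.47 ± 0.17), a call that was lost without set 2, where the mean was -0.38, and with only that group in the fit. With LPS at 2 h its values of -0.42, -0.35 and -0.29 missed the threshold (-0.35 ± 0.06, adjusted p = 0.0698). It passed with the set as a random replicate block (adjusted p = 0.0303), with the spread of arrays scaled (adjusted p = 0.0325) and with a dye term on all arrays (adjusted p = 0.00596). Mvd stood below 0 in every set of the groups with LPS at 2 and 4 h.

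Idi1 was higher in each of the 9 groups with LPS. At 1 h of LPS the sets gave 0.39, 0.44 and 0.54 (0.46 ± 0.08, adjusted p = 0.00225), at 2 h 0.71, 0.55 and 0.67 (0.64 ± 0.08) and at 4 h 0.73, 0.48 and 0.39 (0.54 ± 0.17). The highest mean was 0.64 at 2 h of LPS, 1.56-fold above untreated cells. With LPS+IFG its means were 0.55 ± 0.16, 0.30 ± 0.32 and 0.44 ± 0.09 at the 3 times. The middle one held a set at -0.06 beside others at 0.56 and 0.41. With LPS+2MA they were 0.49 ± 0.19, 0.32 ± 0.02 and 0.29 ± 0.04. Some of these calls hang on single sets: that at 1 h of LPS was lost without set 3 (0.41), that at 2 h of LPS+IFG without set 1 (0.18) or set 3 (0.25), and that at 1 h of LPS+2MA without set 3 (0.38). Those at 2 and 4 h of LPS+2MA were lost whichever set was left out, with means of 0.31 to 0.33 and 0.27 to 0.31. With the spread of all arrays scaled, the calls at 2 h of LPS+IFG (0.29) and at 2 and 4 h of LPS+2MA (0.31 and 0.24) were lost too. In the 6 groups without LPS the gene was not called, with means of -0.01 to 0.17.

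**Figure D2:**
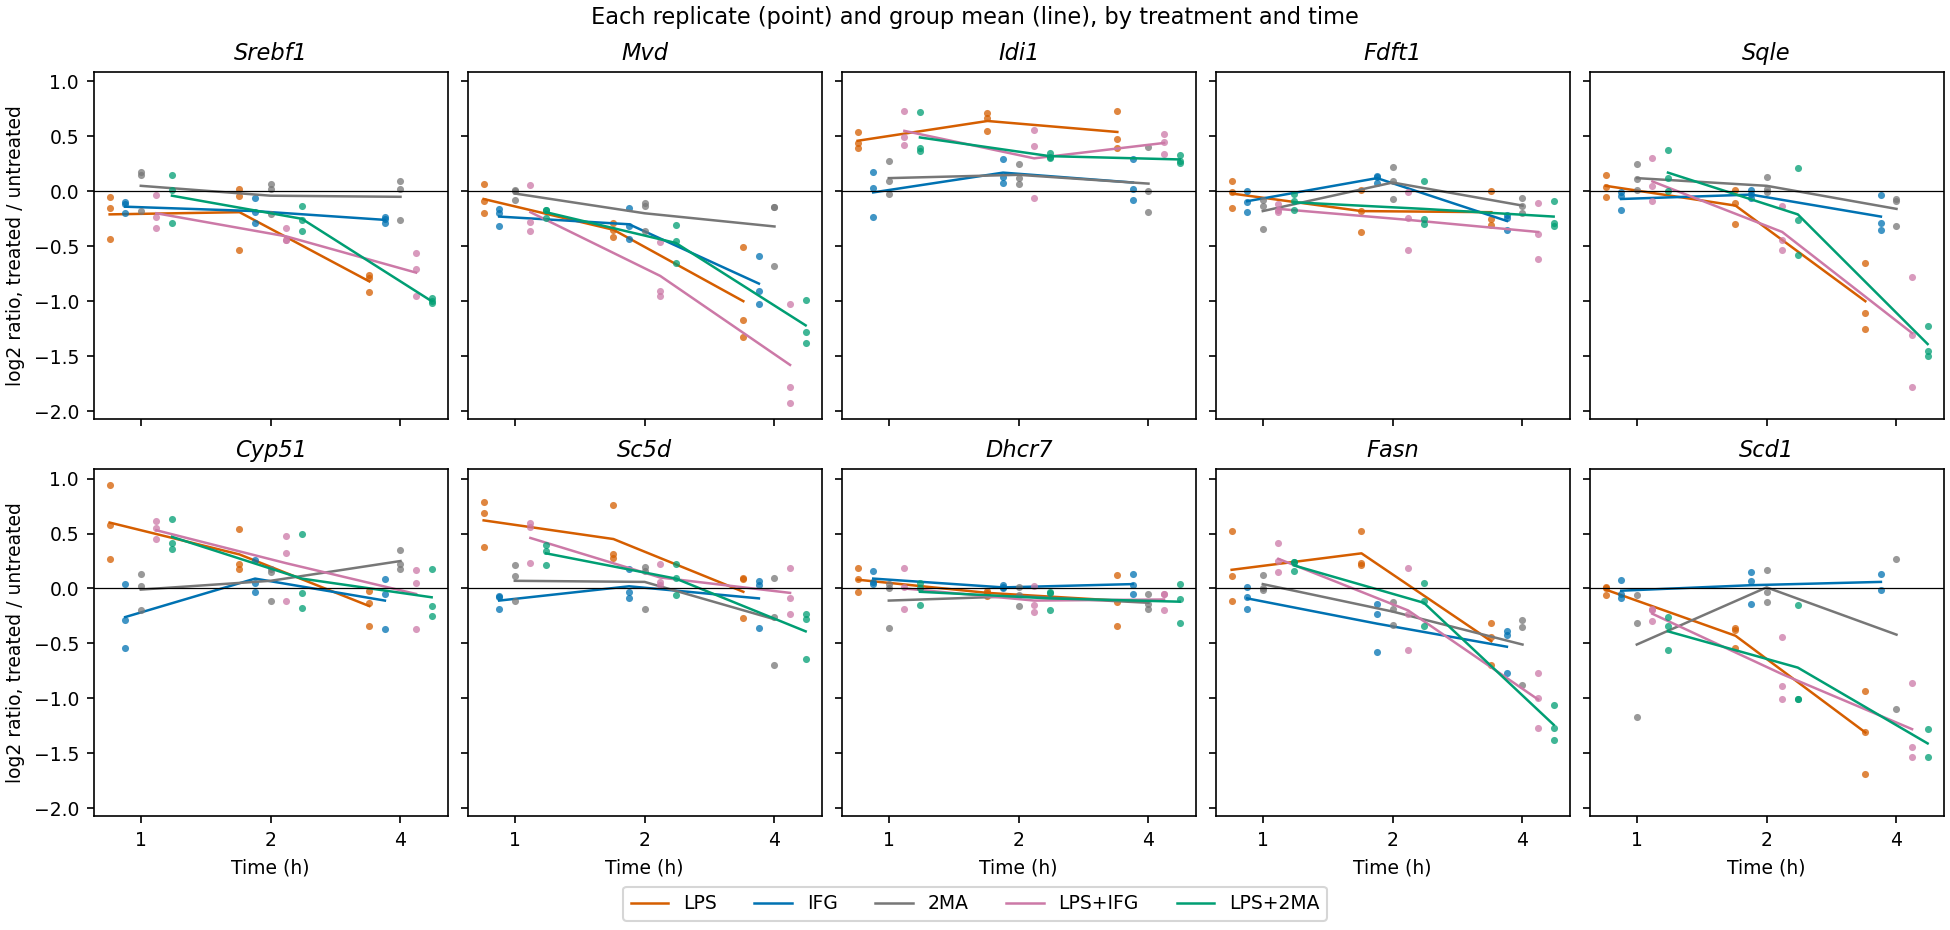
log2 ratio of treated to untreated RNA (vertical) against time in h (horizontal) for each of the 10 genes, with a point for each set, lines through group means and a colour for each treatment. With LPS, LPS+IFG and LPS+2MA, Sqle, Mvd, Srebf1, Fasn and Scd1 run down to 4 h, Idi1 stays above 0 except 1 set, and Cyp51 and Sc5d are highest at 1 h; Sc5d with LPS+2MA ends below 0.

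Fdft1 and Sqle act in sequence. Fdft1, squalene synthase, joins isoprenoids into squalene, and Sqle, squalene epoxidase, oxidises squalene, a rate-limiting step of the sterol branch. Sqle gave -1.11, -1.25 and -0.65 at 4 h of LPS (-1.00 ± 0.32, adjusted p = 4.7e-08). All 3 sets were low, and the level was 49.9% of that in untreated cells. LPS+IFG at 4 h gave -1.78, -1.31 and -0.78 (-1.29 ± 0.50) and LPS+2MA -1.45, -1.50 and -1.23 (-1.39 ± 0.15), 38.1% of the untreated level. At 1 h Sqle had means of 0.05 with LPS, 0.09 with LPS+IFG and 0.17 with LPS+2MA, none called. At 2 h of LPS+IFG it gave -0.53, -0.44 and -0.13 (-0.37 ± 0.21), a call lost without set 1 (-0.28) or set 2 (-0.33), in arrays with treated RNA in Cy3 alone (-0.32) and with only that group in the fit.

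Fdft1 moved far less. With LPS+IFG at 4 h it gave -0.62, -0.39 and -0.11 (-0.37 ± 0.25, adjusted p = 0.00106), and without set 1 the mean was -0.25 and the call was lost. At 4 h of LPS its values of -0.31, -0.25 and 0.00 were not called (-0.19 ± 0.17, adjusted p = 0.134). Its calls at 2 h of LPS+IFG (-0.26 ± 0.26) and 4 h of LPS+2MA (-0.23 ± 0.13) were close to the threshold. The first was lost without set 1 (-0.27) or set 2 (-0.13), the second without set 1 (-0.19) or set 2 (-0.20). Both were also lost in arrays with treated RNA in Cy3 alone, at -0.10 and -0.09, and so was the one at 4 h of LPS+IFG, at -0.27.

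Of the late steps from lanosterol to cholesterol, Cyp51 and Sc5d rose at 1 h of LPS and Dhcr7 was called in no group. Cyp51, the demethylase that acts on lanosterol, gave 0.27, 0.94 and 0.58 at 1 h of LPS (0.60 ± 0.33, adjusted p = 0.00167). All 3 sets were above 0, and without set 2 the mean was 0.43 and the call was lost. LPS+IFG at 1 h gave 0.45, 0.55 and 0.61 (0.53 ± 0.08), a call lost without set 3 (0.50). LPS+2MA at 1 h gave 0.41, 0.36 and 0.63 (0.47 ± 0.15), a call lost whichever set was left out, at 0.39 to 0.52. By 4 h the means were -0.16, -0.05 and -0.08 in these 3 treatments, none called.

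Sc5d, the desaturase of the late route, gave 0.79, 0.69 and 0.38 at 1 h of LPS (0.62 ± 0.22, adjusted p = 0.000433), a call kept without any single set. At 2 h it gave 0.28, 0.76 and 0.31 (0.45 ± 0.27), where set 2 was high and without it the mean was 0.29 and the call was lost. LPS+IFG at 1 h gave 0.56, 0.60 and 0.23 (0.46 ± 0.20), lost without set 1 (0.42) or set 2 (0.40). The gene was lower at 4 h of LPS+2MA, with -0.64, -0.23 and -0.28 (-0.39 ± 0.23), which was lost without set 1 (-0.26) and in arrays with treated RNA in Cy5 alone (-0.34). Dhcr7, the last reductase before cholesterol, had means between -0.13 and 0.09 over the 15 groups and was called in none. It had an unadjusted p of 0.123 at its lowest, at 4 h of 2MA.

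Fasn, fatty acid synthase, and Scd1, which makes monounsaturated fatty acids, stand for the fatty acid branch. Fasn gave -0.70, -0.44 and -0.31 at 4 h of LPS (-0.48 ± 0.20, adjusted p = 0.00184), and without set 1 the mean was -0.37 and the call was lost. Under LPS+IFG at 4 h it gave -1.27, -1.00 and -0.77 (-1.01 ± 0.25) and at 4 h of LPS+2MA -1.38, -1.27 and -1.06 (-1.24 ± 0.16). All sets of both combinations lay below all sets of LPS, and the share of all features without such overlap is not given. At 2 h of LPS Fasn stood above 0, at 0.21, 0.23 and 0.52 (0.32 ± 0.18), but was not called (adjusted p = 0.0714).

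Scd1 gave -1.69, -1.31 and -0.93 at 4 h of LPS (-1.31 ± 0.38, adjusted p = 5.24e-07), 40.4% of the untreated level. LPS+IFG at 4 h gave -1.44, -1.53 and -0.86 (-1.28 ± 0.36), and LPS+2MA -1.28 and -1.53, where set 3 lacked an array and n = 2. The 3 treatments overlapped. At 2 h of LPS all 3 sets were below 0, at -0.38, -0.36 and -0.54 (-0.43 ± 0.10), but the gene was not called (adjusted p = 0.121). It passed there with a dye term on all arrays (adjusted p = 0.0148) and with only that group in the fit (adjusted p = 0.0455). Scd1 was called lower at 2 h of LPS+IFG (-1.01, -0.89 and -0.44, or -0.78 ± 0.30) and of LPS+2MA (-1.01, -1.01 and -0.15, or -0.72 ± 0.50). The call with LPS+2MA was lost without set 1 or set 2 (-0.58 each) and with only that group in the fit. Scd1 was the gene with missing values, 4 of its 90 arrays, which left 2 sets at 4 h of IFG, 2MA and LPS+2MA. Its probe's overlap with the related Scd2 was not tested.

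Interferon-gamma alone gave fewer calls among the genes, and those at 4 h. At 1 and 2 h limma called 0 of 10 beside 1.07% and 3.28% of features, with 1 and 2 of the 10 at an unadjusted p under 0.05. At 4 h it called Mvd, Fasn and Fdft1 lower, 3 of 10 beside 5.68%, and 0 higher beside 6.11%, with 4 of the 10 at an unadjusted p under 0.05. Mvd gave -1.03, -0.91 and -0.59 (-0.84 ± 0.23, adjusted p = 8.77e-06), which was kept without any single set. Fasn gave -0.77, -0.42 and -0.39 (-0.53 ± 0.21), lost without set 1 (-0.41) and where treated RNA carried Cy5 (-0.34), and Fdft1 gave -0.35, -0.24 and -0.22 (-0.27 ± 0.07), lost whichever set was left out, at -0.23 to -0.30. Without set 1 the count was therefore 1. Scd1 stood at 0.06 and Sqle at -0.23, neither called.

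2-methyl-thio-ATP alone left most of the genes uncalled. At 1 and 2 h limma called 0 of 10 beside 1.27% and 1.23% of features, with 1 and 0 of the 10 at an unadjusted p under 0.05. At 4 h Fasn was lower, 1 of 10 beside 0.534%, and 0 were higher beside 1.31%, with 3 of the 10 at an unadjusted p under 0.05. The Fasn sets gave -0.88, -0.29 and -0.35 (-0.51 ± 0.32, adjusted p = 0.0179). Set 1 was the low one, and without it the mean was -0.32 and the call was lost. It was also lost in arrays with treated RNA in Cy3 alone (-0.31). Without set 2 a second gene, Scd1, was called on its 1 remaining set at -1.10, which is assumed to vary like the other groups. Scd1 was spread widely under 2MA, at -1.17, -0.06 and -0.31 at 1 h and at 0.27 and -1.10 in its 2 sets at 4 h.

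The stimuli were then set against each other at the same time. At 1 h LPS stood above IFG in Cyp51 by 0.86 (SE 0.18, adjusted p = 0.00242) and in Sc5d by 0.73 (SE 0.17, adjusted p = 0.00738), 2 of 10 beside 1.47% of features, and 0 were lower beside 0.914%. Each was lost without 1 set of LPS, Cyp51 without set 2 (0.69) and Sc5d without set 1 (0.64), and both in arrays with treated RNA in Cy3 alone (0.70 and 0.60). At 2 h it stood above IFG in Fasn by 0.64 and in Idi1 by 0.48, 2 of 10 beside 3.47%, and 0 were lower beside 3.22%. Fasn was lost without set 3 of LPS (0.54) or of IFG (0.51), and Idi1 without set 1 or 3 of LPS (0.45 and 0.46) or set 2 or 3 of IFG (0.46 and 0.43). Both were lost in either dye orientation alone. In these called genes the sets did not overlap, and the share of all features without overlap is not given. Idi1 at 1 h and Scd1, Fdft1, Dhcr7 and Sc5d at 2 h did not overlap either and were not called. At 1 and 2 h, 3 and 4 of the 10 had an unadjusted p under 0.05. With the set number as a replicate block, Idi1 at 1 h (0.46, SE 0.11, adjusted p = 0.00618) and Sc5d at 2 h (0.43, SE 0.13, adjusted p = 0.023) passed.

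At 4 h LPS lowered Scd1 below IFG by a difference of -1.37 (SE 0.29, adjusted p = 0.00104), Sqle by -0.78 (SE 0.18, adjusted p = 0.00253) and Srebf1 by -0.57 (SE 0.13, adjusted p = 0.00329). That made 3 of 10 lower beside 4.42% of features, all kept without any single set. The Srebf1 difference was lost with the spread of arrays scaled (-0.43) and in the Cy3 orientation alone (-0.57). Idi1 was higher by 0.46, 1 of 10 beside 5.1%, which was lost without set 1 or 2 of LPS (0.36 and 0.48) or set 1 or 2 of IFG (0.43 and 0.38), and with arrays scaled (0.35). Mvd and Fasn, called lower in both treatments, were not told apart, with differences of -0.16 (95% interval -0.54 to 0.22) and 0.05 (95% interval -0.30 to 0.39).

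**Figure D3:**
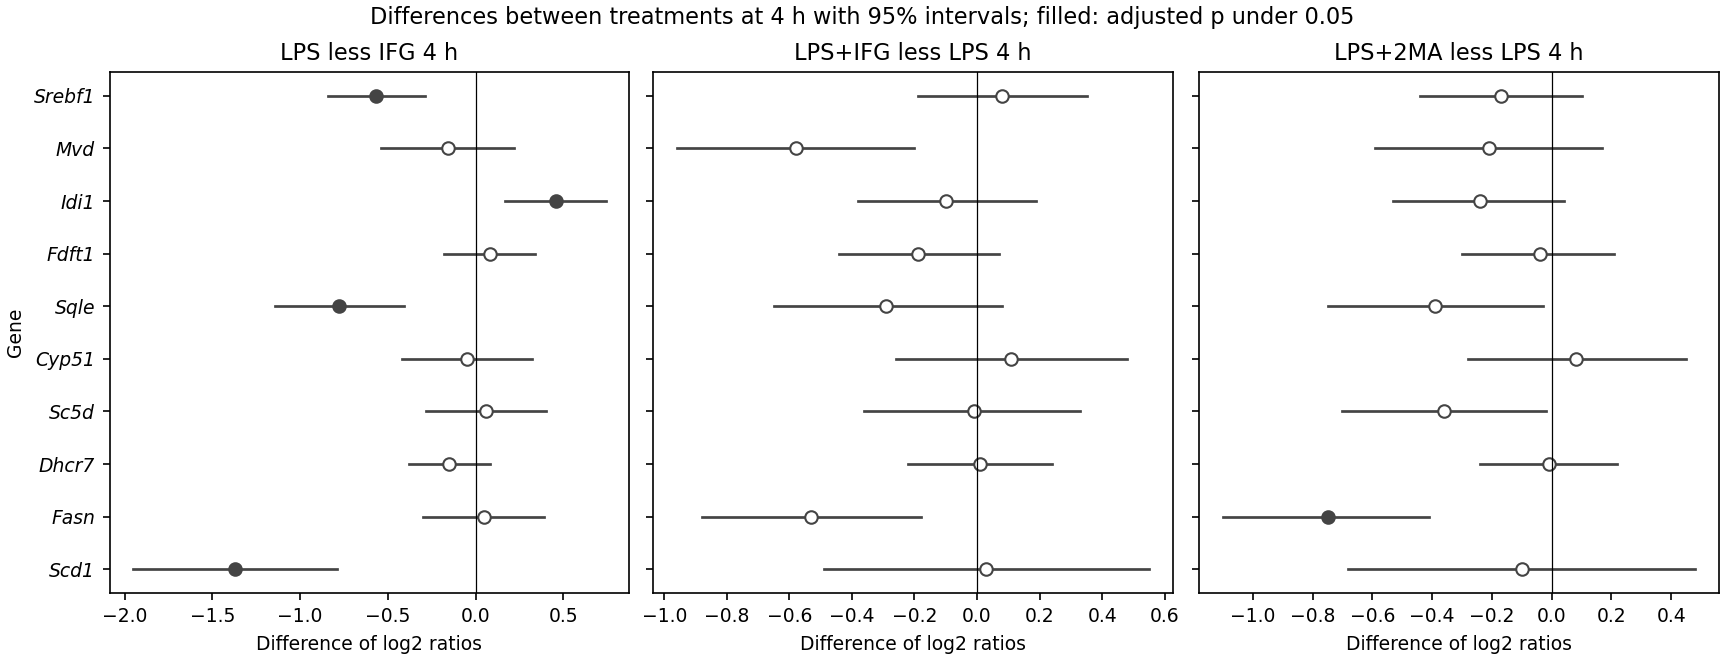
Differences of log2 ratios at 4 h (horizontal) for the 10 genes, with 95% intervals as bars and filled points where the adjusted p was under 0.05. LPS less IFG is filled for Srebf1, Idi1, Sqle and Scd1, LPS+IFG less LPS for none, and LPS+2MA less LPS for Fasn.

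Few differences between a combination and LPS alone passed the test. At 4 h, 0 of 10 differed between LPS+IFG and LPS beside 1.41% of features lower and 2.46% higher, with 2 of the 10, Mvd and Fasn, at an unadjusted p under 0.05. Mvd differed by -0.58 (SE 0.19, 95% interval -0.96 to -0.20, adjusted p = 0.0805) and Fasn by -0.53 (SE 0.17, 95% interval -0.88 to -0.18, adjusted p = 0.0819). Same-numbered sets of LPS and a combination deviated together, and with the set number as a replicate block both passed: Mvd at -0.58 with an SE of 0.11 (adjusted p = 0.000435) and Fasn at -0.53 with an SE of 0.14 (adjusted p = 0.00919). Over the other alternatives the call on Mvd also passed with a dye term on all arrays (adjusted p = 0.00288), without set 1 of LPS (-0.74) and without set 3 of LPS+IFG (-0.85), and that on Fasn without set 3 of LPS+IFG (-0.65). Srebf1 and Scd1 differed by 0.08 (95% interval -0.19 to 0.35) and 0.03 (95% interval -0.49 to 0.55).

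At 2 h limma again called 0 of 10 between LPS+IFG and LPS beside 2.53% of features, with 4 of the 10 at an unadjusted p under 0.05 and all 10 differences below 0. With the replicate block, Fasn (-0.52, SE 0.14, adjusted p = 0.0156) and Mvd (-0.42, SE 0.11, adjusted p = 0.0161) passed. Without set 2 of LPS+IFG, Fasn also passed without the block, at -0.71. Fasn stood above 0 in all sets of LPS at 2 h and was at -0.23, 0.19 and -0.56 with LPS+IFG, so these sets did not overlap. Those of Mvd and Sc5d did not overlap either, and the share of all features without overlap is not given. At 1 h 0 of 10 were called beside 0.966%, and 0 had an unadjusted p under 0.05.

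Between LPS+2MA and LPS, Fasn was lower at 4 h by a difference of -0.75 (SE 0.17, 95% interval -1.10 to -0.41, adjusted p = 0.0384), 1 of 10 beside 0.0603% of features. No gene was higher, beside 0.259%, and 3 of the 10 had an unadjusted p under 0.05. All LPS+2MA sets of Fasn lay below all LPS sets. Sets of Srebf1 (-0.17) and Idi1 (-0.24) did not overlap either, and neither gene was called. The share of all features without overlap is not given. The Fasn call was lost whichever of the 6 sets was left out, with differences of -0.86 to -0.67. It was lost as well with the spread of arrays scaled (-0.63) and in either dye orientation alone (-0.79 and -0.72). At 1 and 2 h 0 of 10 were called beside 0.0776% and 0.0603%, with 0 and 3 of the 10 at an unadjusted p under 0.05. LPS alone was the group listed with lipid binding protein, and its part in these differences cannot be told apart from that of the second agent.

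Set against the sum of the single treatments, the log2 ratios of the combinations showed no called departure in any of the 10 genes. For LPS+IFG the shares of all features called were 0.0862% at 1 h, 0.345% at 2 h and 2.49% at 4 h, with 0, 1 and 1 of the 10 genes at an unadjusted p under 0.05. For LPS+2MA they were 0.0172%, 0.00862% and 0.0517%, with 0, 2 and 0 of the 10. At 4 h of LPS+IFG, Fasn stood at -1.01 where the sum was -1.01 (95% interval of the difference -0.43 to 0.43). Mvd stood at -1.58 where it was -1.84 (95% interval -0.20 to 0.73). Idi1 at 2 h lay below the sum by -0.50 with LPS+IFG and by -0.47 with LPS+2MA, with adjusted p of 0.451 and 1.

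The turn between 1 and 4 h was itself tested. With LPS, 7 of 10 genes had a lower ratio at 4 h than at 1 h beside 6.8% of features, and 0 a higher one beside 6.96%. With LPS+IFG 7 were lower beside 9.37% and 0 higher beside 8.62%, and with LPS+2MA 7 lower beside 9.3% and 0 higher beside 8.56%. They were Srebf1, Mvd, Sqle, Cyp51, Sc5d, Fasn and Scd1 in all 3 treatments, whose values the closing section gives. For Cyp51 this was a return from above 0, for Sqle, Mvd, Srebf1 and Scd1 a fall to well below it. With IFG and 2MA limma called 0 of 10, beside 4.45% and 0.284% of features, with 2 of the 10 at an unadjusted p under 0.05 in each. Mvd with IFG lay at the threshold, with a change of -0.61 (SE 0.19, adjusted p = 0.0504). It passed in 5 alternatives, among them the random replicate block (adjusted p = 0.0158), and without set 3 of IFG at 4 h (-0.74). Fasn with IFG had -0.44 (adjusted p = 0.178) and passed where treated RNA carried Cy3 (-0.90). Each time has its own untreated control, so these are changes of the ratio.

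Across the 15 group means correlations between the genes are given as a description, since the groups share a design, sets and possibly untreated RNA. Sqle followed Srebf1 with a Pearson r of 0.96 and Mvd with 0.94. At the other end, Scd1 and Idi1 had an r of -0.37 and Srebf1 and Idi1 of -0.32. Among 1722 other features whose group means varied at least as much as the mean of the 10, the pattern most like that mean was that of Msmo1 (r = 0.98 over 15 groups). It encodes a methyl sterol monooxygenase that acts later in the route than Cyp51. Deptor, Slbp, Phka1 and Camk2n2 followed with 0.95 each. Msmo1 had 0.39 at 1 h of LPS and -0.43, -0.65 and -0.82 at 4 h of LPS, LPS+IFG and LPS+2MA.

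Other genes of the pathways were taken from lists chosen with earlier results of these data known. Their calls were not examined with sets left out. Of 18 other sterol synthesis genes 6 were tested. At 4 h of LPS 3 were lower beside 15.5% of all features and 1 higher beside 12.5% (median -0.22). At 4 h of LPS+IFG 1 was lower beside 18.5%, which is near that share, and 0 higher beside 14.9% (median -0.17). Msmo1 was lower in both (-0.43 ± 0.26 and -0.65 ± 0.39). Mvk, mevalonate kinase, was lower with LPS (-0.47 ± 0.46, adjusted p = 0.0445), with 2 of 3 sets below 0. With LPS+IFG it stood at -0.42 and was not called. Ggps1, which makes geranylgeranyl diphosphate, was higher with LPS (0.29 ± 0.23). Cyb5r3, an electron donor of the route, was lower than 0 there in 2 of 3 sets (-0.24 ± 0.25, adjusted p = 0.0366). With LPS+IFG Ggps1 stood at -0.13 and Cyb5r3 at -0.01. Hsd17b7 and Tm7sf2, a pair of late reductases, were not called, at -0.01 and -0.21 with LPS and -0.22 and 0.12 with LPS+IFG.

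Of 17 genes of SREBP regulation and sterol uptake 5 were tested. In both groups 2 were lower and 1 higher, beside 15.5% and 12.5% of features with LPS and 18.5% and 14.9% with LPS+IFG. Lpin1, a phosphatidate phosphatase and SREBP target, gave the largest fall of any listed pathway gene, -2.00 ± 0.60 with LPS and -2.29 ± 0.83 with LPS+IFG. Mbtps1, the site-1 protease that cuts SREBPs, fell too (-0.41 ± 0.12 and -0.67 ± 0.05). Npc2, which carries cholesterol out of lysosomes, rose (0.84 ± 0.18 and 0.79 ± 0.17). Npc1, its partner (0.07 and 0.00), and Pgrmc1 (-0.02 and 0.14) were not called.

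Of 31 genes of fatty acid synthesis, elongation and desaturation 17 were tested. With LPS at 4 h 5 were lower beside 15.5% of features and 1 higher beside 12.5% (median -0.12). With LPS+IFG 7 were lower beside 18.5% and 1 higher beside 14.9% (median -0.15). The acyl-CoA synthetases parted: Acsl3 fell (-0.71 ± 0.28 and -1.04 ± 0.20) and Acsl4, which prefers arachidonate, rose (0.71 ± 0.10 and 0.87 ± 0.11). The desaturase Fads1 fell in both (-0.42 ± 0.15 and -0.69 ± 0.11) and Fads2 with LPS+IFG (-0.56 ± 0.40), while with LPS it stood at -0.24 and was not called. Mlycd, malonyl-CoA decarboxylase, fell in both (-0.51 ± 0.24 and -0.54 ± 0.18). It is counted in the list but removes malonyl-CoA, so its fall is not one of a synthesis enzyme. Elovl4 and Hsd17b12 were not called, at 0.12 and 0.18 with LPS and 0.11 and 0.12 with LPS+IFG.

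Of 16 genes of the liver X receptors, oxysterols and efflux 10 were tested. With LPS at 4 h 2 were lower beside 15.5% of features and 2 higher beside 12.5%. With LPS+IFG 1 was lower beside 18.5% and 1 higher beside 14.9%. These counts are near the shares, so they set the list apart in neither direction. Nr1h3, liver X receptor alpha, rose (0.65 ± 0.57 and 0.53 ± 0.44), while its partner Rxrb fell (-0.35 ± 0.09 and -0.65 ± 0.10). Cyp27a1, a mitochondrial sterol hydroxylase that makes an oxysterol, fell with LPS (-0.67 ± 0.21), and with LPS+IFG it stood at -0.39 and was not called. Abca1, the cholesterol exporter, rose with LPS (0.40 ± 0.23), and with LPS+IFG it stood at 0.19 and was not called. Apoe (-0.28 and -0.20) was not called, nor were Cyp7b1 (0.22 and 0.01) or Ch25h, a cholesterol hydroxylase (0.19 and 0.18). With LPS+2MA at 4 h the lists held 1 lower and 0 higher for sterol synthesis, 2 and 1 for SREBP regulation, 6 and 2 for fatty acids and 2 and 3 for the liver X receptors. IFG at 4 h had 1 lower and 1 higher in the second list and 1 lower in the third, and 2MA had 0 calls in the 4 lists. Of all features, 18.1% were lower and 14.7% higher at 4 h of LPS+2MA. The shares were 5.68% and 6.11% at 4 h of IFG and 0.534% and 1.31% at 4 h of 2MA.

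**Figure D4:**
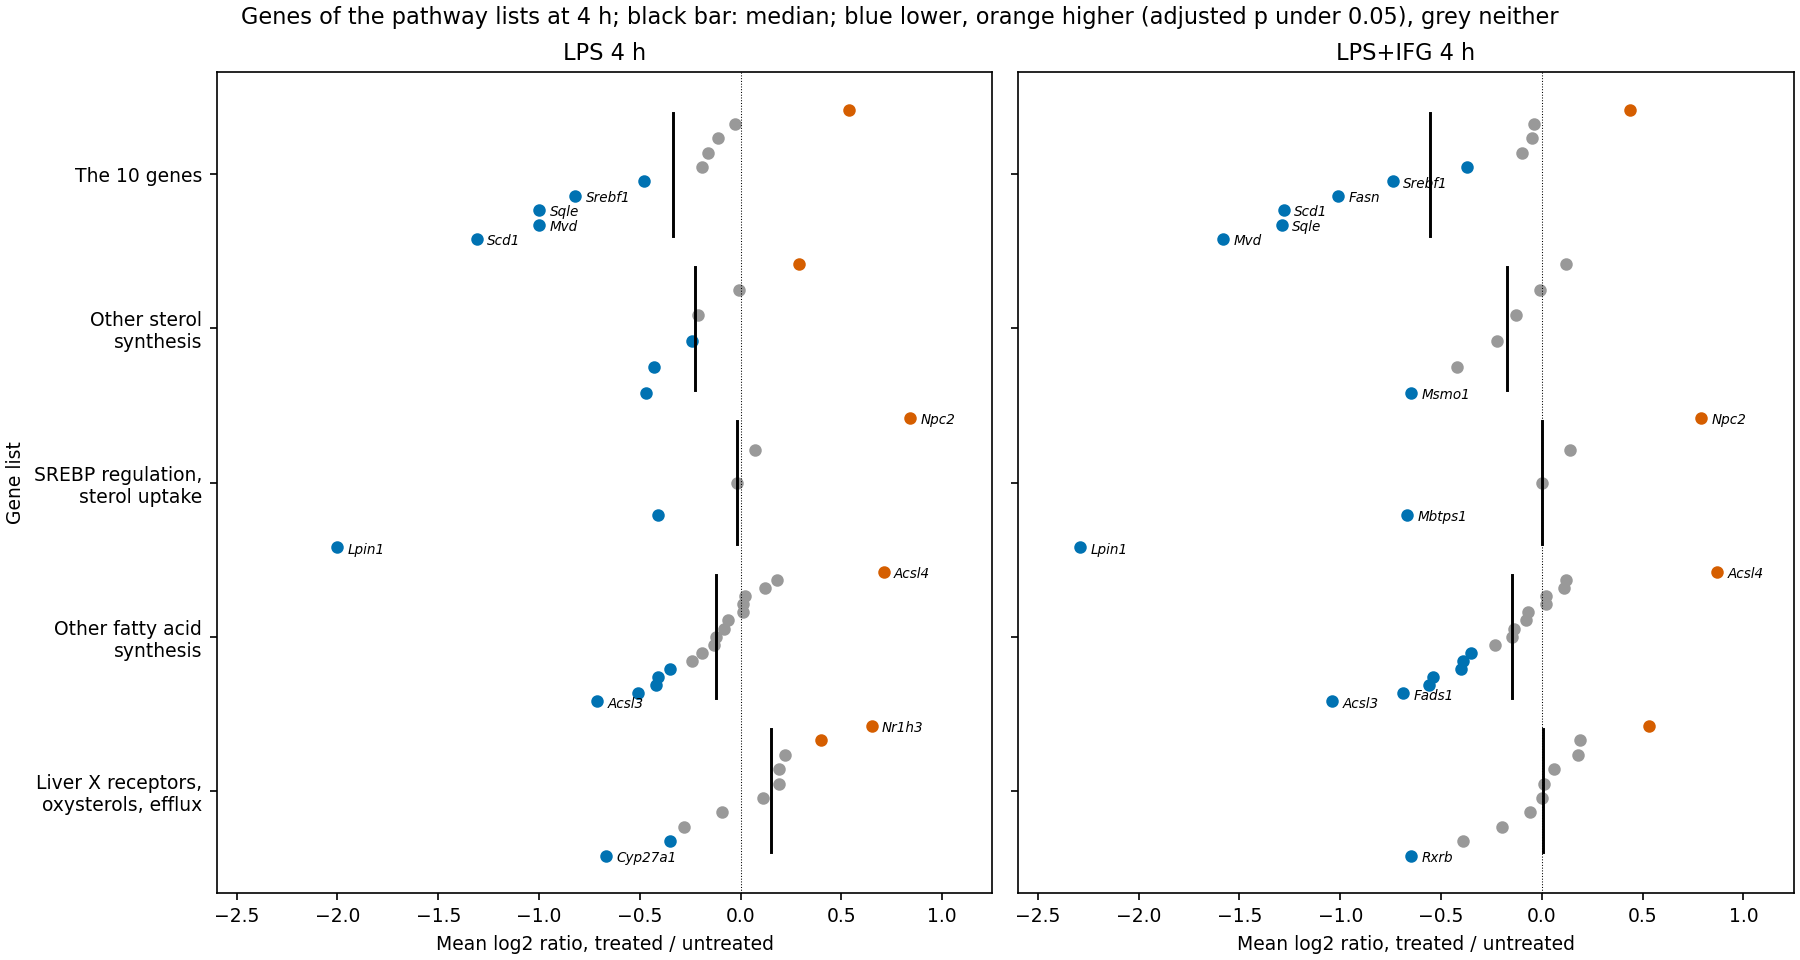
Mean log2 ratio (horizontal) at 4 h of LPS and LPS+IFG for the 10 genes and 4 lists of other pathway genes, with a point for each gene, blue where called lower, orange where called higher, grey where neither, and black bars at list medians. The 10 genes have medians of -0.34 and -0.56, and Lpin1 lies furthest left in both panels.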

How the data were processed

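The deposited values are log2 ratios, 1 per probe and array, on 90 arrays of 16281 probes. How images were turned into ratios, the background correction and the normalization are not given in the sources used here. Array medians were 0, and 14 values lay at 6.64 (100-fold). Ratios were taken as Cy5 over Cy3, the sign was turned where treated RNA was in Cy3, and exact zeros (7.84 to 17% per array) were set to missing. A replicate is the mean of both dye-swapped arrays of a set. Before the sign was turned, these arrays correlated negatively in 37 of 45 sets (r from -0.784 to 0.396). With the mean of each probe over all arrays removed, 45 of 45 did (r from -0.925 to -0.169). Probes of a gene were averaged and 11600 features with at least 2 of 3 replicates in every group were kept.

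limma 3.58.1 (R 4.3.3) fitted a mean for each of 15 groups over 45 replicates, with eBayes. Benjamini-Hochberg adjustment ran over all features in each of 35 comparisons. The fit was also run on simulated data in which all sets were independent. That run cannot show how the fit behaves where same-numbered sets deviate together, as they do here. The median residual SD was 0.199, and the number of arrays limits the precision. All groups of a gene share 1 estimate of its spread, so a group with wider sets is tested with that too. Mvd had an SD of 0.43 at 4 h of LPS and a fitted SD of 0.23. Same-numbered sets of LPS and a combination deviated together (correlation above 0.1 in 18 of 18 pairs, lowest 0.119, median 0.466), which pairs them by the data and not by the labels. Those of LPS and IFG had a similar median of 0.437. The fit has no block, so it takes same-numbered sets as independent. Where fitting the set number as a block changed a call, its values stand beside the fit or the change is named in the closing section.

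The genes and lists were chosen with earlier results of these data known. All 10 genes are named, and of each pathway list the 3 lowest and the 3 highest at 4 h of LPS+IFG and of LPS. Alternatives changed the dye orientation, dye term, scaling, zeros, filter, probe averaging, fitted groups, block and replicates. Keeping sets with 1 array was chosen after seeing the data. Symbols came from the platform annotation, with 13738 probes of 1 symbol, 52 of several and 2491 of none. Python 3.11.15 and matplotlib 3.10.9 were used for promoters and figures.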

Additional observations from a re-analysis of the deposited data

Results flagged for a closer look

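In each treatment with LPS, 7 genes had ratios that differed between 1 and 4 h of that treatment by limma's test of the difference. With LPS the change was -1.05 in Sqle, -1.29 in Scd1, -0.76 in Cyp51, -0.93 in Mvd, -0.65 in Sc5d, -0.66 in Fasn and -0.61 in Srebf1. With LPS+IFG it was -1.38 in Sqle, -1.05 in Scd1, -0.59 in Cyp51, -1.39 in Mvd, -0.51 in Sc5d, -1.29 in Fasn and -0.54 in Srebf1. With LPS+2MA it was -1.56 in Sqle, -1.02 in Scd1, -0.55 in Cyp51, -1.02 in Mvd, -0.70 in Sc5d, -1.45 in Fasn and -0.95 in Srebf1.

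In all 21 cases the sets at 1 and 4 h did not overlap. This is no separate support, since the genes were picked by the test of the same difference. The share of all features without overlap is not given. Some genes that were not called did not overlap either, such as Idi1 with LPS+2MA and Mvd and Fasn with IFG. Some calls were lost without 1 set. With LPS these were Sc5d without set 1 at 1 h (-0.56) or 4 h (-0.53) and Fasn without set 1 at 1 h (-0.48) or 4 h (-0.55). With LPS+IFG they were Cyp51 without set 2 (-0.58) or 3 (-0.55) at 1 h or set 2 at 4 h (-0.43), and Sc5d without set 1 (-0.46) or 2 (-0.44) at 1 h or set 1 (-0.42) or 2 (-0.48) at 4 h. With LPS+2MA they were Scd1 without set 2 at 4 h (-0.90), which left 1 set there, and Cyp51 without set 1 (-0.58) or 3 (-0.46) at 1 h or set 1 (-0.51) or 2 (-0.46) at 4 h. Other settings ended some calls too. With the spread of arrays scaled these were Srebf1 with LPS (-0.44) and LPS+IFG (-0.34), Scd1 with LPS+IFG (-0.69) and LPS+2MA (-0.67), and Sc5d with LPS+IFG (-0.48). With treated RNA in Cy3 they were Srebf1 with LPS (-0.52) and LPS+IFG (-0.55), Cyp51 with LPS+IFG (-0.44) and LPS+2MA (-0.59), and Sc5d with LPS+IFG (-0.44). With treated RNA in Cy5 they were Cyp51 with LPS (-0.61) and LPS+2MA (-0.50), Fasn with LPS (-0.53) and Sc5d with LPS+IFG (-0.58). Scd1 with LPS+2MA was lost with exact zeros kept (-0.74), and Sc5d with LPS+IFG with only the groups compared in the fit (-0.51). Groups of 3 sets are too small for a test of single outlying sets.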

How the results depend on the processing

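Of 44 calls of the 10 genes against untreated cells, 22 held in every alternative run, and 0 values with a call reversed. Of 54 counts, 34 stayed within 1.5 times under all alternatives other than leaving out sets. Most of these were counts of 0 that stayed at 0, such as all those against the sum of single treatments, which says little about stability. Of the counts above 0, more shifted than stayed. The cause of the shifts was not tested. In Cy5 alone the counts became 1 lower at 2 h of LPS, 2 at 1 h of 2MA, 1 lower at 1 h of LPS+IFG, 0 higher in LPS+IFG at 2 h and in LPS+2MA at 2 and 4 h, 4 lower in LPS+2MA at 2 h, 0 for LPS+2MA less LPS at 4 h, 1 for IFG over time, and 0 higher for LPS less IFG at 2 and 4 h. In Cy3 alone they became 1 lower at 1 h of LPS, 0 at 4 h of 2MA, 1 higher at 1 h of LPS+2MA, 0 for LPS+2MA less LPS at 4 h, 1 for IFG over time, 4 for LPS+IFG over time, and 0 higher for LPS less IFG at all 3 times. With scaled spread they became 1 lower at 2 h of LPS, 0 higher at 2 h of LPS+IFG and 2 and 4 h of LPS+2MA, 0 for LPS+2MA less LPS at 4 h, 4 for LPS+IFG over time, and 1 and 0 higher for LPS less IFG at 2 and 4 h. A dye term gave 2 lower at 2 h of LPS, 1 at 1 h of 2MA, 1 for LPS+IFG less LPS at 4 h and 1 for IFG over time. That fit takes single arrays, and its SE for Mvd at 2 h of LPS was 0.10, against 0.13. Fitting only the groups compared gave 1 lower and 1 higher at 2 h of LPS, 0 at 4 h of 2MA, 2 lower and 0 higher in LPS+IFG at 2 h, 0 lower and 0 higher in LPS+2MA at 2 h, 0 for LPS+2MA less LPS at 4 h, 1 for IFG over time, and 1 and 0 higher for LPS less IFG at 2 and 4 h. Complete values gave 1 lower at 2 h of LPS+2MA and 1 for IFG over time. The shares of all features called under each alternative are not given, so these counts describe the settings and not the genes.

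The replicate block gave 2 calls for LPS+IFG less LPS at both 2 and 4 h and changed no other call between a combination and LPS; as a random block it gave 1 lower at 2 h of LPS and 1 for IFG over time. By the labels, sets of LPS and of IFG share only a number, as do sets of LPS and a combination. The correlation of LPS with IFG was above 0.1 in 8 of 9 pairs (lowest -0.031). Its median was 0.437, beside 0.466 for LPS with a combination. Between LPS and IFG the block added Idi1 at 1 h (0.46, adjusted p = 0.00618) and Sc5d at 2 h (0.43, adjusted p = 0.023). Against untreated cells the random block ended the calls of Fdft1 at 4 h of IFG and of LPS+2MA.

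Leaving out 1 set gave 1 to 2 higher at 2 h of LPS, 1 to 2 lower at 4 h of IFG, 0 to 2 lower at 4 h of 2MA, 3 to 5 lower and 0 to 1 higher at 2 h of LPS+IFG, 0 to 1 higher at 1 h, 0 to 2 lower and 0 higher at 2 h and 0 higher at 4 h of LPS+2MA. It gave 0 to 1 for LPS+IFG less LPS at 2 h, 0 to 2 at 4 h, 0 for LPS+2MA less LPS at 4 h, 0 to 1 for IFG over time, and 1 to 2, 0 to 2 and 0 to 1 higher for LPS less IFG at 1, 2 and 4 h. Signal over background was not analysed here, since the values are ratios.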
